A study of Mus musculus with 3 samples.

Results

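Lymphocytes without a transcript of Gzmc (granzyme C) were picked from single-cell RNA sequencing libraries of mouse dorsal skin. A barcode was a member if it had no Gzmc UMI and a UMI of at least 3 of 8 lymphocyte genes, namely Cd3e, Cd3d, Cd3g, Cd2, Il7r, Nkg7, Icos and Ptprc. It also had to lack any UMI of Cd207, Csf1r and C1qa, which mark Langerhans cells and macrophages, and to have less than 4% of its UMIs from Col1a1, Col1a2, Col3a1 and Dcn together. A UMI is a molecular tag that lets each captured transcript be counted once. The rule gave 1257 members among 26143 kept barcodes (4.81%), and 150 further barcodes met it apart from having a Gzmc UMI. These counts chose the members, so the 8 genes and Gzmc are given below as a description of what was chosen.

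The study sampled dorsal skin of C57BL/6 mice at 3 ages, with 1 droplet library each from neonatal mice, mice of 3 weeks and mice of 2 months. No treatment, mutation or sorting step is given in the labels. Biopsies had been cut up and digested with collagenase D and DNase before capture. The number of animals behind a library is not stated, so the ages have no replicates, no test between ages was possible, and every interval below is a 95% interval that covers counting error only.

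Mouse skin holds several kinds of resident lymphocyte. Dendritic epidermal T cells are gamma-delta T cells that seed the epidermis before birth, stay there, and recognise stressed keratinocytes. The dermis holds gamma-delta T cells that can make IL-17, conventional CD4 and CD8 T cells, regulatory T cells, and innate lymphoid cells, which lack a T cell receptor and the Cd3 chains that carry its signal. Natural killer cells are cytotoxic lymphocytes that also lack that receptor.

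There were 49 members in the neonatal library, 337 in the 3 week library and 871 in the 2 month library. They made up 0.619% of kept neonatal barcodes (interval 0.459 to 0.818), 3.79% of those of 3 weeks (interval 3.40 to 4.20) and 9.33% of those of 2 months (interval 8.75 to 9.94). The share was higher at each later age and the intervals did not overlap. Fewer lymphocytes in the skin and fewer recovered by digestion cannot be told apart, and neither can age and library.

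A UMI of Cd3d, Cd3e or Cd3g, the signalling chains of the T cell receptor complex, was found in 38 of 49 neonatal members, 312 of 337 at 3 weeks and 799 of 871 at 2 months. That was 77.6% (63.4 to 88.2), 92.6% (89.2 to 95.1) and 91.7% (89.7 to 93.5) of the members. Of the 11 neonatal members without a Cd3 UMI, 8 carried at least 3 of 9 mast cell genes (Cpa3, Mcpt4, Cma1, Tpsb2, Kit, Fcer1a, Ms4a2, Hdc, Gata2), and no member of the later libraries did. Without those 8 the neonatal share was 92.7%.

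**Figure D1:**
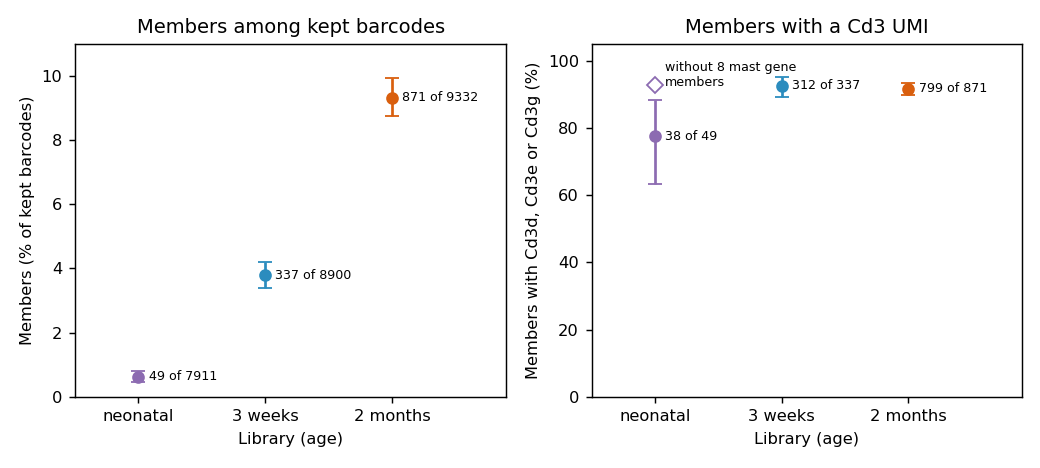
Left, members as a percentage of kept barcodes in each library; right, members with a UMI of Cd3d, Cd3e or Cd3g as a percentage of members. Points are single libraries, bars are 95% exact binomial intervals for counting error only, and the open diamond is the neonatal share (92.7%) without the 8 members that carried mast cell genes; the left panel climbs through 0.619%, 3.79% and 9.33%.

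Genes of the rule describe what was chosen and cannot check the label of the set. At 3 weeks and 2 months Cd3e was found in 69.4% and 76.1% of members, Cd2 in 49.3% and 53.2%, Il7r in 31.8% and 22.8%, and Icos in 40.4% and 33.9%. In the neonatal library the shares were 51% for Cd3e, 53.1% for Cd2, 24.5% for Il7r and 57.1% for Icos. After each cell was thinned at random to 1500 UMIs no rule gene was found in more than 0.674% of fibroblast barcodes. Genes outside the rule are given next. They were ranked in these same barcodes, so they too are a description and cannot check the label. The comparison was with kept barcodes that were neither members nor Gzmc-positive lymphocytes. The 10 genes that stood highest over these other barcodes at both later ages included Cd247, Cd7, Lat, Ctsw, Xcl1, Ctla2b, Cxcr6, Ptprcap and Il2rb, which are lymphocyte genes. Cd7, a surface protein of T and natural killer cells, stood at 207, 1501 and 1745 CPM (UMIs scaled to the same total in every set) in neonatal, 3 week and 2 month members, against 0.210, 8.71 and 8.80 CPM in the other barcodes. Xcl1, a chemokine of natural killer and T cells, stood at 755, 810.3 and 1048 CPM in members, against 0.0866, 4.74 and 8.65 CPM. Neither gene was particular to the members, since Gzmc-positive lymphocytes at 3 weeks had 2125 CPM of Cd7 and 3179.6 CPM of Xcl1.

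At the edges of the rule, 16, 54 and 135 members had exactly 3 of the 8 genes, and 34, 44 and 98 barcodes with exactly 2 fell just outside. Just inside, 37.5%, 59.3% and 55.6% had a Cd3 UMI in the neonatal, 3 week and 2 month libraries, against 5.88%, 25% and 22.4% just outside. The macrophage and Langerhans genes removed 2, 58 and 52 barcodes and the collagen limit removed 1, 16 and 18. Of the barcodes with Gzmc, 3, 13 and 21 had a single Gzmc UMI. Between 23 and 31 kept barcode sequences were shared by any pair of libraries, and none of them was shared by members.

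Depth differed between the libraries. The median member had 7767 UMIs in the neonatal library, 2640 at 3 weeks and 2521 at 2 months, against 10101, 12955 and 12894 in fibroblast barcodes (4% or more of UMIs from the collagen genes and Dcn). For that reason shares of cells below were taken after thinning to 1500 UMIs unless stated, which left 48, 324 and 779 members and dropped 1, 13 and 92 shallower ones. Of 289 listed genes, 83, 161 and 183 had a lower interval bound in members above the upper bound in fibroblast barcodes thinned alike. These counts depend on the number of members, which was smallest in the neonatal library, so they do not compare the ages.

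Some members also held transcripts of other cells. At least 1% of UMIs came from a list for another cell type or from haemoglobin in 8, 24 and 86 members of the neonatal, 3 week and 2 month libraries. In the neonatal library these were the 8 members with mast cell genes. At 3 weeks 17 and at 2 months 46 were over the limit for keratinocyte genes, and 3 and 27 were over it for fibroblast genes, while none passed it for B cell genes. These members are called mixed below. They held 17.2%, 37.9% and 34.9% of all member UMIs, with medians of 8178, 18002 and 11098 UMIs against 7767, 2551 and 2371 in the remaining 41, 313 and 785. Doublet calling marked 10, 3 and 49 members, of which 1, 3 and 42 were mixed, and all were kept. Because sums of UMIs give the deepest barcodes the most weight, ratios of CPM are given below over all members and, where they differ by more than 1.5 times or change sides, also without the mixed members.

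The libraries also differed in sex-linked genes. Xist, the female X-inactivation transcript, was found in 63.1% of kept neonatal barcodes, 0.112% at 3 weeks and 0.0643% at 2 months. Y-linked genes were found in 31.6%, 74.3% and 68.7%. Xist was present in 30 neonatal members and in no member of either later library, so sex and age cannot be told apart.

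Many members carried genes that dendritic epidermal T cells share with natural killer cells. T cell receptor genes were not analysed here, so T cell kinds are described by the lists alone, and lists were counted over genes that fibroblast barcodes mostly lack. With the cells at equal depth, 3 or more of 7 such genes (Fcer1g, Xcl1, Cd7, Gzmb, Klrk1, Itgae, Cd244) were found in 17 of 48 neonatal members (35.4%, 22.2 to 50.5), 129 of 324 at 3 weeks (39.8%, 34.4 to 45.4) and 374 of 779 at 2 months (48.0%, 44.5 to 51.6). The intervals of neighbouring ages overlapped. In fibroblast barcodes the share was 0%, 0.0794% and 0.184%. Of the 7 genes 5 (Fcer1g, Xcl1, Cd7, Gzmb, Klrk1) are also on the natural killer and ILC1 list, and 3 or more of the 20 genes of that list were found in 54.2%, 42.0% and 50.4% of neonatal, 3 week and 2 month members. At 2 months the epidermal list was also carried by 23 of 71 members without a Cd3 UMI (32.4%).

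As deposited, 159 members carried the epidermal list at 3 weeks and 489 at 2 months, and 158 and 475 of them carried the natural killer and ILC1 list too. Ctsw (cathepsin W, a protease of cytotoxic lymphocytes) was found in 91.8% and 92.0% of the epidermal carriers, and Klrd1 (CD94, a receptor subunit of natural killer cells) in 64.2% and 64.2%. Among the rule genes, Nkg7, a cytotoxic granule membrane protein, was found in 95.6% and 95.1%, Il7r, the receptor for the survival cytokine IL-7, in 5.03% and 9.20%, and the costimulator Icos in 2.52% and 6.54%. A member needs 3 of the 8 rule genes, so their shares among carriers of any list, here and below, are tied to each other by the choice and are given as a description. The amphiregulin gene Areg, a growth factor for epithelium, was found in 46.5% and 39.1%.

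Genes of IL-17 producing lymphocytes marked a small group. At equal depth 3 or more of 13 such genes were found in 0 of 48 neonatal members (up to 7.40%), 23 of 324 at 3 weeks (7.10%, 4.55 to 10.5) and 25 of 779 at 2 months (3.21%, 2.09 to 4.70). No member without Cd3, no Gzmc-positive lymphocyte and no fibroblast barcode carried it in any library at that depth. The group was found at both later ages, and the intervals of the later ages overlapped slightly.

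As deposited there were 35 carriers of the IL-17 list at 3 weeks and 49 at 2 months. Il7r was found in 71.4% and 67.3% of them, Icos in 60.0% and 53.1%, and Cxcr6, a chemokine receptor of resident lymphocytes, in 91.4% and 77.6%. Rora, a transcription factor of type 17 and group 2 lymphocytes, was found in 85.7% and 87.8%. Nkg7 was found in 5.71% and 4.08%, Cd2 in 5.71% and 8.16%, Xcl1 in 0% and 2.04%, and Fcer1g in none. At 3 weeks and 2 months 0 and 2 members carried both this list and the epidermal list. Within the list, Cd163l1 (a scavenger receptor of gamma-delta T cells) was found in 91.4% and 49.0%, the kinase Blk in 60.0% and 59.2%, and Il17a in 31.4% and 44.9%. Cd28 and Cd5, which conventional T cells carry, were found in 0% and 10.2% and in 2.86% and 8.16%.

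CD4 and regulatory T cell genes (3 or more of 11) were found at equal depth in 0 of 48 neonatal members, 23 of 324 at 3 weeks (7.10%, 4.55 to 10.5) and 45 of 779 at 2 months (5.78%, 4.24 to 7.65). In the 35 and 92 carriers as deposited, the inhibitory receptor Ctla4 was found in 85.7% and 69.6%, Ikzf2 (Helios) in 91.4% and 78.3%, Cd28 in 80.0% and 68.5%, and Foxp3, the regulatory T cell factor, in 34.3% and 32.6%. Icos was found in all of the 3 week carriers and 89.1% of the 2 month carriers. These carriers had the conventional T cell genes Cd28 and Cd5 that the IL-17 carriers mostly lacked. Foxp3 was found in 13 members at 3 weeks, 9 of which also had Ctla4, and in 33 at 2 months, 23 of which did.

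CD8 T cell genes (3 or more of 5) were found at equal depth in no neonatal member, 0.309% at 3 weeks and 15 of 779 at 2 months (1.93%, 1.08 to 3.16). At 2 months Cd8a was found in 53 members as deposited and its partner Cd8b1 in 37 of these 53, while none of the 53 had Cd4. In the 31 carriers of that age the chemokine Ccl5 was found in all, Itgae (the CD103 integrin that binds epithelium) in 61.3%, and Xcl1 in 12.9%. A sizeable remainder carried fewer than 3 genes of each of the 8 lists, namely 80 of 337 members at 3 weeks (23.7%) and 171 of 871 at 2 months (19.6%). Rora was found in 87.5% and 78.9% of this remainder and Icos in 72.5% and 65.5%.

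**Figure D2:**
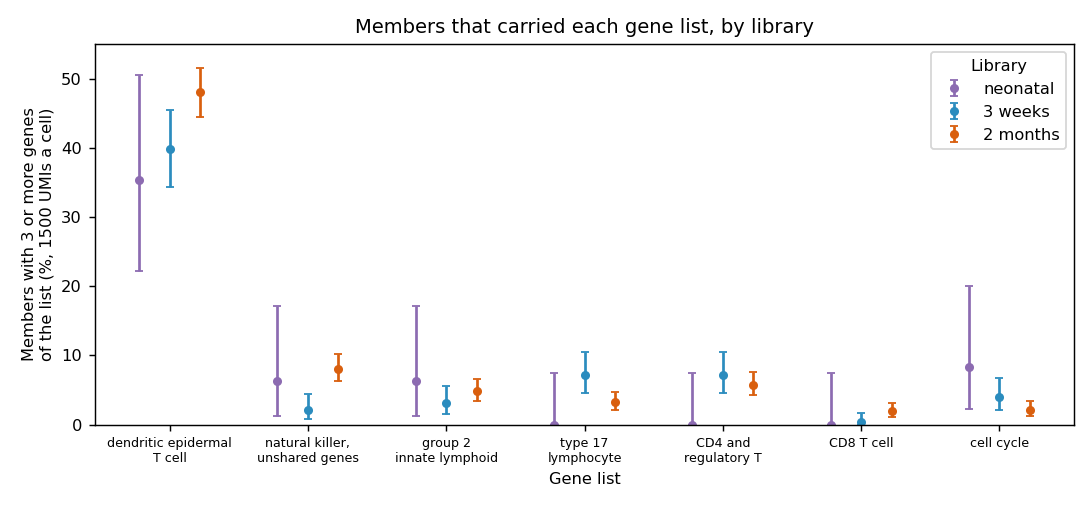
Members that carried 3 or more genes of each list, as a percentage of members thinned to 1500 UMIs (48 neonatal, 324 at 3 weeks, 779 at 2 months). Points are single libraries and bars are 95% exact binomial intervals for counting error only; of the lists shown the epidermal list stands highest in each library, and the type 17, CD4 and CD8 lists are at 0 in the neonatal library. The natural killer list is shown without the 5 genes it shares with the epidermal list.

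**Figure D3:**
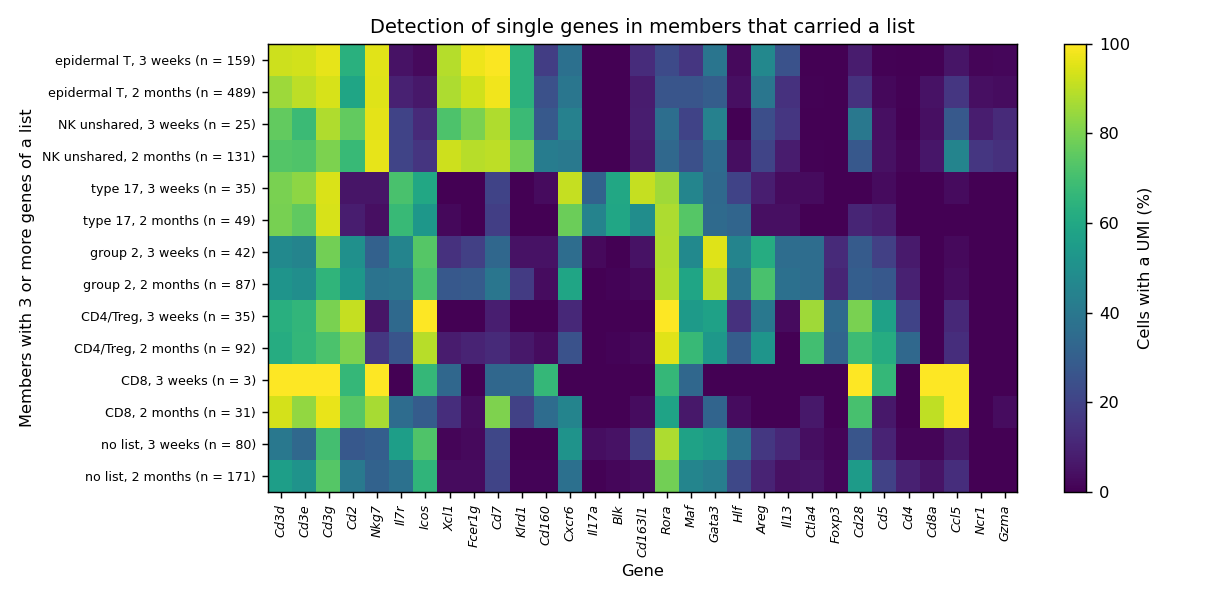
Percentage of cells with a UMI of each gene (colour scale, 0 to 100%) among members that carried a list, without thinning, at 3 weeks and 2 months. Rows are lists and ages, with the number of cells; the first 7 columns are genes of the rule. The epidermal rows are bright for Xcl1, Fcer1g and Cd7, which are on that list, and the type 17 rows are bright for Cxcr6 and Rora.

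Members were then split by whether Cd3 was detected, a split on genes of the rule that allows description only. Members without a Cd3 UMI had to reach 3 genes among the other 5, so their higher shares of Il7r, Icos, Cd2, Nkg7 and Ptprc are set by the rule and are not used here. Depth was similar in both sets, with medians of 2646 UMIs in members with Cd3 and 2613 without at 3 weeks, and 2462 and 2712 at 2 months. At equal depth they numbered 301 and 23 at 3 weeks and 708 and 71 at 2 months.

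At 2 months the members without Cd3 held natural killer genes that members with Cd3 mostly lacked. Ncr1 (NKp46, an activating natural killer receptor) was found in 1 of 708 members with Cd3 (0.141%, 0.00358 to 0.784) and 13 of 71 without (18.3%, 10.1 to 29.3). Gzma (granzyme A) was found in 3 of 708 with Cd3 (0.424%) and 15 of 71 without (21.1%, 12.3 to 32.4), and Tyrobp, the DAP12 adaptor of activating receptors, in 20 of 708 (2.82%) and 23 of 71 (32.4%, 21.8 to 44.5). Klra8, a Ly49 receptor whose reads may be shared with close relatives such as Klra7, was found in 0.706% with Cd3 and 16.9% without. The intervals did not overlap for any of these genes. Taking the natural killer list without the genes it shares with the epidermal list, 5.65% of members with Cd3 and 32.4% of those without carried 3 or more of 15 genes.

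At 3 weeks Ncr1 and Gzma were rare on either side. Ncr1 was found in 1 of 301 members with Cd3 and 0 of 23 without, which allows up to 14.8%. Gzma was found in 4 of 301 with Cd3 and 0 of 23 without. The limit of 14.8% at 3 weeks lies above the lower bound of 10.1% at 2 months, so for Ncr1 a difference between the ages was not detectable at this depth. Other genes of the natural killer list were common with Cd3 at 3 weeks. Klrd1 was found in 20.3% of members with Cd3 (15.9 to 25.3) and 8.70% without (1.07 to 28.0), and 3 or more of the 20 listed genes in 44.5% and 8.70%. Without the genes shared with the epidermal list the shares were 1.66% with Cd3 and 8.70% without, with overlapping intervals.

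Several genes of group 2 innate lymphoid cells stood higher without Cd3 at both ages, while the summed level of Areg was higher with Cd3. Gata3, the transcription factor of type 2 lymphocytes, was found at 3 weeks in 31.9% of members with Cd3 (26.7 to 37.5) and 60.9% without (38.5 to 80.3), and at 2 months in 20.9% (18.0 to 24.1) and 47.9% (35.9 to 60.1). Rora was found in 43.2% and 73.9% at 3 weeks, and in 40.0% and 66.2% at 2 months, with and without Cd3. Hlf, a transcription factor on the same list, was found in 8.97% with Cd3 and 34.8% without at 3 weeks, and in 7.20% and 25.4% at 2 months. For all 3 genes the intervals of the sets did not overlap at either age. Per cell 15 group 2 genes were counted, and Rora and Hlf were not among them. At 3 weeks 3 or more were found in 9 of 301 members with Cd3 (2.99%) and 1 of 23 without (4.35%, 0.110 to 21.9). At 2 months the counts were 27 of 708 with Cd3 (3.81%) and 11 of 71 without (15.5%). The intervals for the list overlapped at 3 weeks and did not at 2 months. Il13, a cytokine of these cells, was found at 2 months in 7.06% with Cd3 and 18.3% without, but at 3 weeks in 10.3% with Cd3 and 8.70% without. Areg ran the other way in summed CPM, at 1284 CPM with Cd3 and 337 CPM without at 3 weeks (log2 ratio 1.93, 1.40 to 2.51) and at 851 and 353 CPM at 2 months (1.27, 0.99 to 1.57). As shares of cells it was found in 26.6% and 17.4% at 3 weeks and in 27.5% and 22.5% at 2 months, with overlapping intervals.

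At 3 weeks and 2 months no member had both Ncr1 and Hlf, while the only neonatal member with Ncr1 also had Hlf. Among the 72 members without Cd3 at 2 months, as deposited, 17 had Ncr1 and 33 had Hlf, and none had both. Of the 17 with Ncr1, 8 also had Eomes, 11 had Klra8 and 12 had Gzma, while 7 had Gata3. Of the 33 with Hlf, 32 also had Rora and 24 had Gata3. At 3 weeks 10 of 25 members without Cd3 had Hlf, and 9 of these had Rora. Gata3 and Hlf were not limited to that side, since at 2 months 55 of 799 members with Cd3 had both. Of members with Ccr6, an IL-17 list gene, 16 of 23 had Hlf at 3 weeks and 20 of 37 at 2 months. In all, 60 and 124 members had Hlf. Without Cd3, 4 of 5 members with Ccr6 had Hlf at 3 weeks and 6 of 9 at 2 months. Hlf was found in 7 of 35 and 16 of 49 IL-17 carriers, and 19 of 42 and 33 of 87 group 2 carriers. Of the remainder that carried no list, 30 of 80 and 37 of 171 had Hlf. The kind of cell that Hlf marks was not tested.

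T cell receptor signalling genes stood higher with Cd3. Cd247, the zeta chain of the receptor complex and not a gene of the rule, was found at 3 weeks in 37.5% of members with Cd3 and 0 of 23 without (up to 14.8%), and at 2 months in 39.3% and 9.86% (4.06 to 19.3). Lat, a membrane adaptor of that signal, was found in 50% with Cd3 and 19.7% without at 2 months. At 3 weeks the Lat shares of 49.8% and 34.8% (16.4 to 57.3) had overlapping intervals.

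Genes of IL-17 cells had no single direction. Of 8 measured in summed CPM at 3 weeks 2 were higher and 2 lower with Cd3, and of 7 at 2 months 2 were higher and 1 lower. Cd163l1 was found in 16.6% with Cd3 (12.6 to 21.3) and 0 of 23 without (up to 14.8%) at 3 weeks, and in 6.07% (4.43 to 8.09) and 0 of 71 (up to 5.06%) at 2 months. The chemokine receptor gene Ccr6 ran the other way, at 2.66% with Cd3 (1.15 to 5.17) and 17.4% without (4.95 to 38.8) at 3 weeks, and at 1.69% (0.879 to 2.94) and 8.45% (3.16 to 17.5) at 2 months. The Cd163l1 intervals overlapped at both ages, and the Ccr6 intervals overlapped at 3 weeks and did not at 2 months. Aqp3, a water and glycerol channel, stood at 94.6 CPM with Cd3 and 209 CPM without at 3 weeks (-1.14, -1.86 to -0.34). Summed over all 3 week members that were not mixed, Aqp3 was under the 50 CPM minimum.

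**Figure D4:**
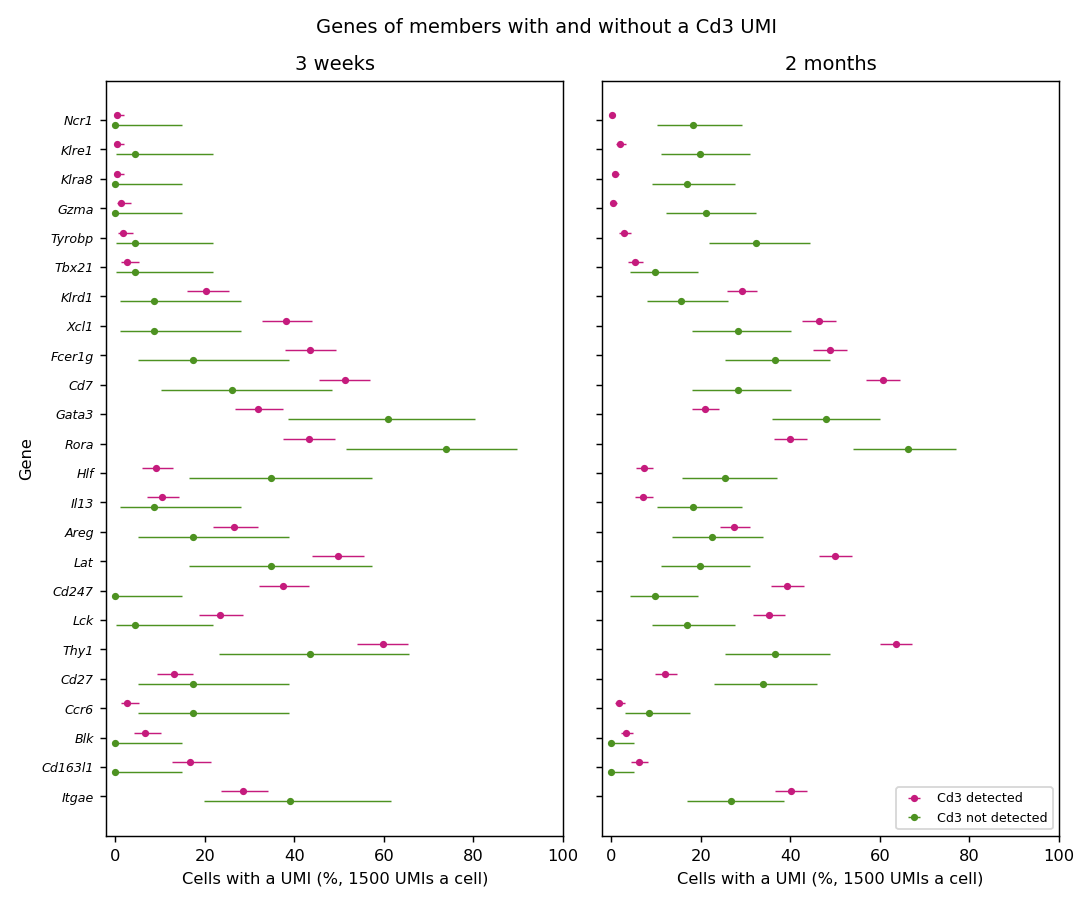
Percentage of members with a UMI of each gene, at 1500 UMIs a cell, for members with Cd3 (upper point of each pair) and without (lower point), in the 3 week and 2 month libraries. Bars are 95% exact binomial intervals for counting error only; Ncr1, Klra8, Gzma and Tyrobp stand apart at 2 months, and Gata3, Rora and Hlf are higher without Cd3 in both libraries.

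Summed CPM over the sets gave similar contrasts, with genes at 50 CPM or more in at least 1 sum. Over all such genes 11.8% were higher by 2-fold or more and 10.7% lower by as much with Cd3 at 3 weeks (3536 genes), and 11% and 7.63% at 2 months (3473 genes). Without the mixed members the shares were 13.1% and 12.9% at 3 weeks and 9.61% and 9.55% at 2 months. The balance at 3 weeks depends on the scaling, with 417 genes higher and 379 lower as given, 599 and 261 with edgeR's TMM factors, which moved the median of all genes from -0.07 to 0.15, and 383 and 534 when CPM were averaged over cells. The rule used this contrast, so the counts for the lists are a description. Of 12 T cell receptor signalling genes measured at 2 months 7 were higher and 1 lower with Cd3 (median log2 ratio 1.02, against -0.02 over all genes), and of 11 at 3 weeks 3 were higher and 1 lower (0.33, against -0.07). Of 8 group 2 genes 6 were lower and 1, Areg, higher at 2 months (-1.15), and of 9 at 3 weeks 6 were lower and 1, again Areg, higher (-1.19). Of 17 natural killer genes 10 were lower and 1 higher at 2 months (-1.71), while at 3 weeks 3 of 9 were higher and 1 lower (0.90).

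Several cytokine receptor genes were lower with Cd3 in summed CPM. Of 15 cytokine receptor genes 7 were lower and none higher at 3 weeks (-0.78). With TMM factors these were 4 and 2, and with CPM averaged over cells 5 and 2. At 2 months 4 were lower and 1 higher (-0.37), and 2 of 14 were lower without the mixed members. Among the 7, Il9r, Il18rap, Il2ra, Il6ra, Il18r1 and Il21r reached 50 CPM at 3 weeks only in members without Cd3. Such genes could only come out lower, so the count of 7 against none does not show a direction. They rested on 5 to 12 counts there, and the intervals of Il18rap, Il6ra, Il18r1 and Il21r also allowed no difference. Il18r1, the receptor for the cytokine IL-18, was found in 8.64% of members with Cd3 and 26.1% without (10.2 to 48.4) at 3 weeks, and in 10.7% and 22.5% (13.5 to 34) at 2 months. Il2ra, a chain of the IL-2 receptor, was found in 9.63% and 13% at 3 weeks and in 6.50% and 14.1% at 2 months. The intervals overlapped for Il2ra at both ages and for Il18r1 at 3 weeks. Rgs1, a regulator of chemokine receptor signals that resident lymphocytes carry, ran the other way, at 3829.8 CPM with Cd3 and 487 CPM without at 3 weeks (2.97, 2.54 to 3.45) and at 4406 and 617 CPM at 2 months (2.84, 2.63 to 3.06). No gene of the WNT pathway passed 2-fold at either age, of 3 and 4 measured.

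Single genes showed the size of these gaps. Gzma stood at 13.6 CPM with Cd3 and 925 CPM without at 2 months (log2 ratio -6.09, -6.59 to -5.61), and Ncr1 at 3.24 and 132 CPM (-5.35, -6.52 to -4.32). Rora stood at 646 CPM with Cd3 and 1474 CPM without at 3 weeks (-1.19) and at 544 and 1203 CPM at 2 months (-1.15). The chemokine Ccl5 ran in opposite directions, at 218 CPM with Cd3 and 104 without at 3 weeks (1.06, from 295 and 9 counts) and at 404 and 2187 at 2 months (-2.44). Averaging CPM over cells gave -0.62 at 3 weeks, so its direction there depends on how cells are weighted.

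Outside the lists and without the mixed members, the genes highest with Cd3 at both ages were Fam174b, Matk, Fermt2, Adgrg1, Lgals3, Ctnnbl1, Sgk1 and Marcksl1. Lgals3 (galectin-3) had log2 ratios of 3.12 at 3 weeks and 2.71 at 2 months. The lowest were Bmp2, Gas7, Itgb3, 5430421N21Rik, Pxdc1, Zfp512, Adora2a and Rnf130. Bmp2, a secreted morphogen, had log2 ratios of -2.20 and -2.39, so members without Cd3 had the higher level at both ages.

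Across ages, the members of the neonatal library differed most. At equal depth Cd163l1 was found in 37.5% of neonatal members, 15.4% at 3 weeks and 5.52% at 2 months. Among members that were not mixed the shares were 43.9% (28.5 to 60.3), 16.3% (12.3 to 21.0) and 6.05% (4.40 to 8.09), lower at each later age with intervals that did not overlap. Genes found with it were counted as deposited. There 21 of 26 neonatal members with Cd163l1 had Xcl1 and none had Blk. At 3 weeks 18 of 68 had Xcl1 and 25 had Blk, and at 2 months 30 of 67 had Xcl1 and 15 had Blk. Neonatal members were deeper, with a median of 7767 UMIs against 2640 and 2521, so the Xcl1 counts do not compare the ages.

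Tyrobp was found in 24 of 48 neonatal members, 1.85% at 3 weeks and 5.52% at 2 months. Without the mixed members, which include those with mast cell genes, the shares were 43.9%, 2.00% and 5.91%. Fcer1g, an adaptor of Fc and natural killer receptors, was found in 81.2%, 41.7% and 47.8%, and in 78.0%, 44.0% and 49.7% without the mixed members. Both genes signal downstream of activating receptors, and both were most widespread in the neonatal library.

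Cd7 ran the other way, at 20.8% of neonatal members (10.5 to 35.0), 49.4% of those of 3 weeks (43.8 to 55) and 57.8% of those of 2 months (54.2 to 61.3). Cd247 was found in 8.33%, 34.9% and 36.6%, and Lat in 27.1%, 48.8% and 47.2%. Bcl11b, a transcription factor of T cell identity, was found in 0 of 48 neonatal members (up to 7.40%) and in 25.3% at each later age, but it was found in 16.6%, 10.7% and 9.96% of fibroblast barcodes too. The neonatal level of these genes was below that of both later libraries.

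Activation and effector genes differed as well. Cd44, an adhesion receptor of activated and memory cells, was found in 31.2%, 56.2% and 52.1% of neonatal, 3 week and 2 month members, and Ltb (lymphotoxin beta) in 6.25%, 21.0% and 24.6%. Nr4a2, an immediate early gene that also marks resident cells, was found in 83.3%, 57.7% and 51%. The effector genes Ifng (2.08%, 5.25%, 15.0%) and Ccl5 (6.25%, 5.25%, 14.4%) were most widespread at 2 months. In summed CPM Ccl5 stood at 610.4 in the neonatal library, 211 at 3 weeks and 559 at 2 months. Its sum was lower at 3 weeks than in the neonatal library (-1.53, -1.78 to -1.28) although the shares were close. The neonatal sum of 253 UMIs came from few cells, and the interval does not cover differences between cells. As deposited, 5 of the 35 neonatal carriers of the natural killer and ILC1 list had Ccl5. The interval for Ccl5 among members that were not mixed was 12.4 to 17.9 at 2 months and 3.34 to 8.92 at 3 weeks, and that for Ifng was 14.0 to 19.7 and 3.34 to 8.92. The class I genes H2-K1 (62.5%, 77.5%, 88.7%) and B2m (58.3%, 73.8%, 84.1%), which present peptides, were also higher at each later age. In fibroblast barcodes H2-K1 was found in 9.66%, 59.3% and 68.6% and B2m in 23.5%, 43.3% and 69.1%, so these genes were higher at each later age in another cell type of the same libraries. H2-K1 reads may be shared with close class I relatives.

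Some markers were steadier. Xcl1 was found in 41.7%, 36.1% and 44.8% of members and Itgae in 33.3%, 29.3% and 38.9%. Rora was found in 35.4%, 45.4% and 42.4%. The neonatal interval for Xcl1 (27.6 to 56.8) took in the values of both later ages. Cell cycle genes (3 or more of 15) were found in 8.33% (2.32 to 20), 4.01% (2.15 to 6.76) and 2.18% (1.28 to 3.47), with overlapping intervals between neighbours, against 1.90%, 2.72% and 0.276% in fibroblast barcodes.

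As sums of CPM, 410 of 3458 genes (11.9%) were higher by 2-fold or more at 3 weeks than in the neonatal library and 221 (6.39%) were lower by as much, or 13.1% and 6.25% of 3265 genes without the mixed members. Leaving mitochondrial, ribosomal protein and haemoglobin genes out of the totals gave 490 higher and 413 lower, and moved the median of all genes from 0.07 to -0.05. The lists can be read against those shares. Of 11 T cell receptor signalling genes 3 were higher and none lower (median 0.55, against 0.07 over all genes), and without the mixed members 6 of 12 were higher. Cd7 stood at 1501 CPM at 3 weeks, against 207 CPM in neonatal members (a log2 ratio of 2.85, 2.54 to 3.18) and Cd247 at 300.2 and 82.0 CPM (1.87, 1.37 to 2.42).

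Tyrobp stood at 20.2 CPM at 3 weeks and 572 CPM in the neonatal library (-4.83, -5.44 to -4.27), and without the mixed members at 32.4 and 472 CPM (-3.86). Gzma stood at 18.8 and 191 CPM (-3.34). Of 11 natural killer genes 2 were higher and 4 lower (-0.05), so that list had no single direction. Of 7 type 17 genes 4 were higher and none lower (1.69), and Il17a was at least 8.06-fold higher, as the neonatal sum held none of its UMIs and was set to 3 counts. Aqp3, another of the 4, stood at 101 and 9.65 CPM over all members and was under the 50 CPM minimum without the mixed members. Of 15 tissue residency and activation genes 2 were higher (0.38).

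Group 2 genes came out differently without the mixed members. Of 11 group 2 genes 2 were higher and 4 lower over all members (-0.54), and 2 of 9 higher and 1 lower without the mixed members (0.34). Il13 stood at 73.7 CPM at 3 weeks and 359 CPM in the neonatal library (-2.29), but at 111 and 87.5 CPM without the mixed members (0.34, -0.26 to 0.98). The growth factor Csf2 likewise had ratios of -1.51 and 1.48. Of 4 inhibitory receptor genes 1 was higher and 3 lower (-1.71), and of 6 without the mixed members 3 were higher and 2 lower (0.90). The median for inhibitory receptors was also above 0 with CPM averaged over cells (1.24) and with mitochondrial, ribosomal protein and haemoglobin genes left out of the totals (0.63). All 7 mast cell genes measured were lower at 3 weeks and all 12 keratinocyte genes higher (median 7.31), with mast cell genes summing to 10.4 CPM at 3 weeks and 16879 CPM in the neonatal library, and keratinocyte genes to 13112 and 135 CPM.

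Genes that respond to tissue digestion also differed between these libraries. Of 20 dissociation and heat shock genes 10 were higher at 3 weeks and none lower (median 0.99), and 12 of 20 were without the mixed members. Fos was found in 33.3%, 68.8% and 73.3% of neonatal, 3 week and 2 month members, and in 66.7%, 79.4% and 92.1% of fibroblast barcodes. Hspa1a, whose reads may be shared with its near-identical neighbour Hspa1b, was found in 25%, 50.9% and 61% of members and 70.9%, 89.3% and 92.1% of fibroblast barcodes. In summed CPM Hspa1a stood at 2834 at 3 weeks and 1674 in the neonatal library (0.76), but at 2746 and 187 without the mixed members (3.88). Dnajb1 likewise had log2 ratios of 1.13 and 2.91. Jun (2.50 and 1.60) and Atf3 (2.49 and 1.12) had smaller ratios without the mixed members. The part of handling in the age differences above was not tested.

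Between 2 months and 3 weeks fewer genes differed, with 128 of 3292 (3.89%) higher by 2-fold or more at 2 months and 52 (1.58%) lower by as much. Without the mixed members 85 of 3140 (2.71%) were higher and 21 (0.669%) lower. None of 12 T cell receptor signalling genes, 8 group 2 genes, 15 residency genes or 12 cytokine receptor genes passed 2-fold. Of 10 natural killer genes 3 were higher (0.47, against -0.04 over all genes). Ccl5 stood at 559 CPM at 2 months and 211 CPM at 3 weeks (1.40, 1.23 to 1.58), Ifng at 155 and 60.5 CPM (1.36, 1.03 to 1.7), and Gzma at 93.2 and 18.8 CPM (2.31).

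Cd163l1 was the only type 17 gene of 6 past 2-fold over all members, at 58.3 CPM at 2 months and 181 CPM at 3 weeks (-1.64, -1.91 to -1.37). Without the mixed members Il17f passed 2-fold too, at 67.3 CPM at 2 months and 25.7 CPM at 3 weeks (1.39, 0.75 to 2.09). Cd163l1 (-1.74) and Zbtb16 (-1.12, -1.68 to -0.57) were then lower at 2 months. AW112010, an interferon-inducible transcript, stood over all members at 186 CPM at 2 months and 48.0 CPM at 3 weeks (1.95). Of 13 interferon and antigen presentation genes 3 were higher and none lower (0.40), but 1 of 14 was higher without the mixed members. The genes outside the lists that differed most over all members were fibroblast genes such as C3, Gpx3, Pi16 and Sfrp2 on the higher side, and epidermal genes such as Krt77 and Mt4 on the lower side. Fibroblast genes summed to 2556 CPM in members at 2 months and 1177 CPM at 3 weeks, and their part in these ratios was not tested.

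Without the mixed members the highest genes outside the lists at 2 months over 3 weeks were Scd1, Crabp1, Apoc1, Apoe, Fmod, Mgst1, Coch and Angptl4, with log2 ratios of 7.30 for Scd1 (5.44 to 10.35, from 775 counts at 2 months and 2 at 3 weeks) and 5.66 for Apoe (from 2245 and 18 counts). The lowest were Ptgds, Hbb-bs, Adrb1, Rrm1, Tnfaip8l1, Avpi1, Myo1e and Ss18l1. Scd1, Apoc1 and Apoe take part in lipid handling. Genes of other cell types moved with them. Of 5 keratinocyte genes measured 3 were higher at 2 months and none lower, at 253 CPM at 2 months and 28.0 CPM at 3 weeks for Krt14 (3.18), 89.5 and 19.0 CPM for Perp (2.24), and 77.7 and 1.12 CPM for Krt79 (6.12, 3.62 to 11.43, from 171 and 1 counts). The 12 keratinocyte genes summed to 711 CPM at 2 months and 322 CPM at 3 weeks, and Bgn, a matrix proteoglycan, stood at 79.1 and 25.7 CPM (1.62). Their part in the ratios of the genes named above was not tested. For 3 weeks over neonatal the highest were Matk, Fermt2, Flrt3, Adora3, Ctnnd2, Mt1, Rasgrp1 and Gprin3, and the lowest Xist, Ifitm1, Itih5, Mef2c, Cd93, Zdbf2, Plaur and Napsa. Ifitm1, an interferon-induced membrane protein, rested on 6 counts at 3 weeks and 310 in the neonatal library (-7.07).

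The members were last set beside the lymphocytes with a Gzmc UMI, of which there were 7, 39 and 104. Gzmc chose both sets, so the contrast is a description. Gzmc-positive cells were deeper, with medians of 4047 UMIs at 3 weeks and 4003 at 2 months against the 2640 and 2521 of members. At equal depth 39.8% of members and 76.9% of Gzmc-positive cells carried the epidermal T cell list at 3 weeks, and 48.0% and 86.3% at 2 months. The natural killer and ILC1 list was carried by 42.0% of members and 87.2% of Gzmc-positive cells at 3 weeks, and by 50.4% and 91.2% at 2 months. Without the genes shared with the epidermal list these shares were 2.16% and 25.6%, and 8.09% and 41.2%. Xcl1 was found in 36.1% of members and 79.5% of Gzmc-positive cells at 3 weeks, and in 44.8% and 88.2% at 2 months. Tyrobp was found in 1.85% and 41.0% at 3 weeks and in 5.52% and 45.1% at 2 months, and Cd160, a receptor of natural killer and cytotoxic T cells, in 6.17% and 30.8% and in 8.60% and 36.3%.

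Other genes were more widespread in the members. Rora was found in 45.4% of members and 23.1% of Gzmc-positive cells at 3 weeks, and in 42.4% and 6.86% at 2 months. Bcl11b was found in 25.3% and 5.13% at 3 weeks and in 25.3% and 5.88% at 2 months. Blk was found in 6.17% and 2.95% of members at 3 weeks and 2 months and in 0 of 39 and 0 of 102 Gzmc-positive cells, which allows up to 9.03% and 3.55%, so a difference in Blk was not detectable at this depth.

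In summed CPM 6.49% of genes were higher by 2-fold or more and 5.18% lower by as much in members than in Gzmc-positive cells at 3 weeks (3515 genes), and 6.76% and 3.81% at 2 months (3356 genes). Without mixed barcodes on either side the shares were 4.89% and 7.50% at 3 weeks and 5.63% and 4.26% at 2 months. Natural killer genes were lower in members for 8 of 11 at 3 weeks (median -1.74) and 8 of 13 at 2 months (-1.24), where 1 was higher. Epidermal T cell genes were lower for 6 of 9 and 5 of 9 (-1.31 and -1.21). Type 17 genes were higher for 2 of 6 and 3 of 6 (0.73 and 1.04). Tyrobp stood at 20.2 CPM in members and 622 CPM in Gzmc-positive cells at 3 weeks (-4.95), and at 103 and 1019 CPM at 2 months (-3.31). Gzma stood at 93.2 CPM in members at 2 months, with none of its UMIs in the 104 Gzmc-positive cells. Its UMIs came from 18 of 871 members. Finding it in 0 of 104 allows a share up to 3.48%, so a difference in share was not detectable. Cell cycle genes were lower in members for 6 of 15 at 3 weeks and 7 of 12 at 2 months. At 3 weeks these 6 reached 50 CPM only in Gzmc-positive cells, on 11 to 18 counts, so they could only come out lower. At equal depth 4.01% of members (2.15 to 6.76) and 5.13% of Gzmc-positive cells (0.627 to 17.3) carried the cell cycle list at 3 weeks. At 2 months the shares were 2.18% (1.28 to 3.47) and 6.86% (2.80 to 13.6), so the intervals overlapped at both ages. Keratinocyte genes were higher in members for 9 of 12 at each age, and their part in these ratios was not tested.

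**Figure D5:**
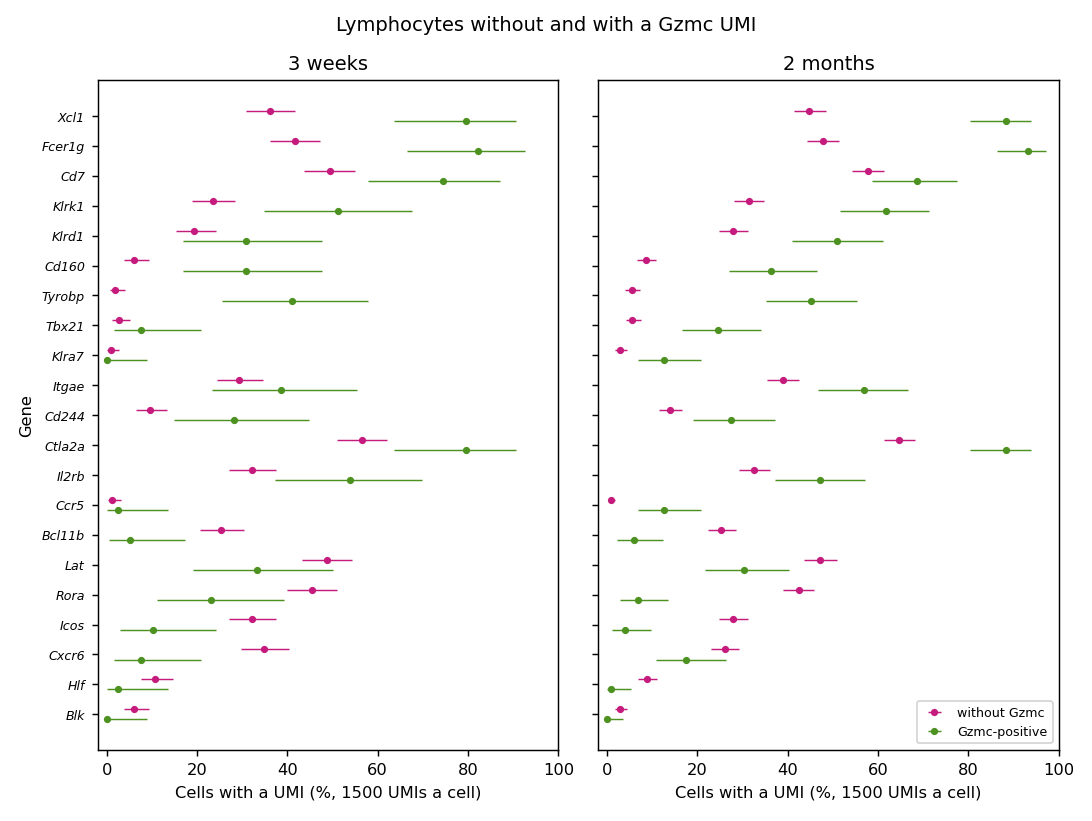
Percentage of cells with a UMI of each gene, at 1500 UMIs a cell, in lymphocytes without Gzmc (upper point of each pair) and with Gzmc (lower point), in the 3 week and 2 month libraries. Bars are 95% exact binomial intervals for counting error only; Xcl1, Fcer1g, Tyrobp and Cd160 are higher with Gzmc, and Rora and Bcl11b are higher without.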

How the data were processed

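Droplet libraries of dorsal skin were analysed, 1 for each of 3 ages. The authors deposited raw UMI counts for 27998 genes a library as matrices, with whole numbers and no normalization, and the submitters' processing notes list the mm10 build together with Cell Ranger 3.0.2 and Seurat 2.0. Raw totals were 84086755, 113874172 and 98432611 counts in 8452, 10226 and 10190 barcodes. Barcodes with 300 genes, 500 UMIs and at most 10% mitochondrial UMIs were kept. The members and all lists were chosen with earlier results of these data known. Scrublet scores (scanpy 1.11.5, expected rate 0.06) marked doublets, which were kept; its own threshold marked 0.0379% of neonatal barcodes, so the top share by score, 481 barcodes, was marked there, and 182 and 366 were marked by that threshold at 3 weeks and 2 months.

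Shares of cells were taken after random thinning to 1500 UMIs, with exact Clopper-Pearson intervals. Lists counted per cell used genes found in under 5% of fibroblast barcodes (10% for cell cycle genes). UMIs were summed over members to a common total (CPM), and genes at 50 CPM or more in at least 1 sum were compared as ratios with exact conditional intervals for 2 counts, rule genes left out. A sum of 0 was set to 3 counts as a bound. No hypothesis test was run, as each age has 1 library. Of 381 genes in 26 lists, 362 were in the files, and 14 T cell receptor genes were not analysed here; a few single-gene results are not reported here. Named outside the lists were the 8 highest and 8 lowest genes of a comparison, without rule, mitochondrial and ribosomal protein genes, and the 10 leading genes at 200 CPM or more. Ratios and thinning were tested on simulated data. Alternatives included edgeR 4.0.16 TMM factors. Other software was Python 3.11.15, numpy 2.4.6, pandas 2.3.3, scipy 1.17.1 and matplotlib 3.10.9.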

Additional observations from a re-analysis of the deposited data

Results flagged for a closer look

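For 2 of the genes reported here the log2 ratio of members with Cd3 over members without was at least 2-fold in opposite directions at 3 weeks and 2 months. Ccl5, a chemokine, had 1.06 at 3 weeks and -2.44 at 2 months. Krt17, a keratin of hair follicle epithelium, had -2.84 and 4.0. The difference between the libraries was not tested. Krt17 was under the 50 CPM minimum without the mixed members. Ccl5 kept both directions without them, at 1.32 and -2.17, and its 3 week value rests on 9 counts in members without Cd3.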

How the results depend on the processing

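No paired analysis was possible because each age is 1 library and all are numbered replicate 1. Asking for 2 of the 8 genes gave member shares of 1.05%, 4.28% and 10.4% in the neonatal, 3 week and 2 month libraries, and asking for 4 gave 0.417%, 3.18% and 7.89%. A mitochondrial limit of 5% gave 2.9% at 3 weeks and 7.47% at 2 months. The share at 2 months without the mixed members was 8.41%. Members with a Cd3 UMI made up 97.0%, 98.9% and 98.4% when 4 genes were required, 84.3% and 84.2% at 3 weeks and 2 months at 1500 UMIs, and 92.7% in the neonatal library without the mast cell members or, equally, without the mixed ones.

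At 3 weeks over neonatal, leaving mitochondrial, ribosomal protein and haemoglobin genes out of the total gave 413 lower genes, and a 100 CPM minimum gave 200 higher and 98 lower. At 2 months over 3 weeks, averaging CPM over cells gave 60 and 21, a 100 CPM minimum 65 and 28, and leaving out the mixed members 85 and 21, higher and lower; without marked doublets 84 were higher. For the Cd3 contrast a 100 CPM minimum gave 158 and 140 at 3 weeks and 169 and 143 at 2 months; at 3 weeks TMM factors gave 599 and 261, averaging CPM over cells 383 and 534, and leaving mitochondrial, ribosomal protein and haemoglobin genes out 502 and 567. The 100 CPM minimum tests fewer genes by construction, and for the other settings the cause was not tested.

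Of the ratios of listed genes past 2-fold over all members, 4 changed sign without the mixed members, namely Il13 (0.34) and Csf2 (1.48) at 3 weeks over neonatal, and Krt10 at 3 weeks (-0.81) and Cd74 at 2 months (0.48) for the Cd3 contrast. Ratios under 2-fold that changed sign and then passed it were Hsph1 (1.78) and Isg15 (1.52) at 3 weeks over neonatal, Krt14 (3.18), Perp (2.24) and Krt79 (6.12) at 2 months over 3 weeks, Krt14 (-1.41) and Perp (-1.92) for the Cd3 contrast at 2 months, and Col6a1 (-1.53) for members over Gzmc-positive cells at 3 weeks. Averaging CPM over cells turned Ccl5 (-0.62), H2-Q7 (-0.06) and Krt10 (-0.06) at 3 weeks and Ly6a (-0.09) at 2 months. Of the other values for single genes 26 moved and 1600 did not under changes of scaling, CPM minimum, doublets or rule genes, and 17 and 394 under the alternatives chosen after seeing the data. Leaving out the mast cell members, the mixed members or members without Cd3 was chosen after seeing the data. Neonatal values rest on 49 members, and the 11, 25 and 72 members without Cd3 limit what can be seen there.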
